A study of Mus musculus with 21 samples.

Results

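Complement is a cascade of secreted and cell surface proteins that tags cells and debris for removal. The 9 genes described here were taken by name from a raw count table of 17164 genes: C1qa, C1qb, C1qc, C3, C4b, Cfb, C3ar1, C5ar1 and Serping1. All 9 were in the table and all 9 passed the filter on low counts. RNA sequencing was done on 20 libraries of 5000 to 10000 cells each, sorted as ganglion cells of the retina (neurons that send their axons through the optic nerve), from C57BL/6 mice aged 6 to 7 weeks, 3 days after optic nerve crush. The knockout groups had received guide RNAs against a bZIP transcription factor of the stress response, with 5 ATF3, 2 ATF4, 4 CEBPG (C/EBP gamma) and 5 CHOP (gene Ddit3) knockout libraries, and 4 control libraries, labelled WT, had received a control guide. How the guides reached the cells, and which cells of the retina they edited, is not given in the labels. All groups, control included, carried the nerve crush, so no comparison with uninjured cells is made. Nothing in the labels says that libraries came from separate animals, so each p-value reads only the spread from library to library, which may be technical.

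As background, C1q is built of chains A, B and C, recognises tagged surfaces and starts the classical pathway, and in the retina and brain it is made mainly by microglia. C1q-bound proteases cleave C4, and C4b then helps to form the enzyme that cleaves C3. Factor B (Cfb) forms the corresponding enzyme of the alternative pathway, C3a and C5a are read by the receptors C3ar1 and C5ar1, and C1 inhibitor (Serping1) blocks the C1 proteases. In the injured and developing visual system, C1q and C3 are known for marking synapses and debris for uptake by microglia.

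The submitters' sample sheet put all 4 controls in batch 2 from male mice, the ATF3, CEBPG and CHOP knockouts in batch 3 from female mice, and the ATF4 knockouts in batch 1. Controls shared no batch with a knockout. Against control, the knockout cannot be told apart from its batch, nor, for ATF3, CEBPG and CHOP, from sex, and only the ATF3, CEBPG and CHOP knockouts share a batch and a sex. The sheet lists ATF4 replicate 1 as female, yet it held the Y-linked transcript Ddx3y at 61.5 CPM (counts scaled to library size) and Xist at 0.26 CPM. Counted reads ran from 25267560 to 32776378 in ATF3, 11929692 to 12404601 in ATF4, 9000250 to 29810987 in CEBPG, 14272784 to 31543917 in CHOP and 6401446 to 11752828 in control libraries. Atf3 was at 38.3 ± 6.68 CPM (SD, n = 5) in ATF3 knockouts against 113 ± 9.28 CPM (n = 4) in controls, and Atf4 at 154 ± 7.96 CPM (n = 2) in ATF4 knockouts against 301 ± 71.7 CPM. Cebpg was at 74.6 ± 21.2 CPM in CEBPG knockouts against 83.3 ± 7.81 CPM in controls, and Ddit3 at 65.5 ± 6.13 CPM in CHOP knockouts against 88.3 ± 14.7 CPM. Each was as low or lower in another knockout group, with Atf3 at 36.9 CPM in CHOP, Atf4 at 87.9 CPM in ATF3, Cebpg at 53.9 CPM in ATF4 and Ddit3 at 61.9 CPM in ATF3 knockouts. A small edit need not lower a transcript, so these levels do not check the labels.

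Sorted cells were labelled ganglion cells, yet markers of other cells were abundant. The 14 rod photoreceptor markers summed to 38897 to 61254 CPM in control libraries and to 3179 to 9025 CPM in knockout libraries. The part of this difference in the comparisons against control was not tested. The 12 ganglion cell markers summed to 475 to 722 CPM over all libraries, with means of 686, 702, 532, 586 and 614 CPM in ATF3, ATF4, CEBPG, CHOP and control libraries. Nefl alone averaged 404 CPM in ATF3 libraries. At an adjusted p below 0.05 in edgeR, 3 of the 12 rose and 6 fell in ATF3 knockouts against control. The counts were 5 and 0 in ATF4, 1 and 4 in CEBPG and 2 and 4 in CHOP knockouts. Over all genes 16.6% to 18.6% rose and 14.6% to 15.4% fell. Pou4f2, a scarce ganglion cell transcription factor transcript, was at 0 in 4 of 4 CEBPG libraries and averaged 1.51 CPM in controls, whereas Nefl averaged 275 CPM in CEBPG and 270 CPM in control libraries. The 16 microglia markers summed to 5132 to 5547 CPM in ATF3, 4781 to 5882 CPM in ATF4, 5532 to 7040 CPM in CEBPG, 3491 to 4827 CPM in CHOP and 3967 to 5807 CPM in control libraries, and none of them was at 0 in any library. In these bulk samples, fewer cells of a type and less RNA per cell cannot be told apart.

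Promoters of 3 genes are shown, because the C1q chains had the highest levels and C3 the largest change among the 9 genes. They run from 250 bases before to 50 bases after the RefSeq start (GRCm38.p6, minus strand, 5′ to 3′), and capitals mark a match to a motif searched on both strands. RefSeq windows were found for 5 of the 9 genes, C1qb, C1qc, C3, C3ar1 and C5ar1. The 3 lines are chr4:136886151-136886450 for C1qb, chr4:136892865-136893164 for C1qc and chr17:57228087-57228386 for C3.
C1qb: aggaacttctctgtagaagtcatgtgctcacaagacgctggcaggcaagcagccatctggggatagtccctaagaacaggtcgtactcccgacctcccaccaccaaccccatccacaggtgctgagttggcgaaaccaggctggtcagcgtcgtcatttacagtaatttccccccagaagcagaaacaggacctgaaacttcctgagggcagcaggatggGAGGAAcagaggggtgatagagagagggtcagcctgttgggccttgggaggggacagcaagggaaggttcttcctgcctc
C1qc: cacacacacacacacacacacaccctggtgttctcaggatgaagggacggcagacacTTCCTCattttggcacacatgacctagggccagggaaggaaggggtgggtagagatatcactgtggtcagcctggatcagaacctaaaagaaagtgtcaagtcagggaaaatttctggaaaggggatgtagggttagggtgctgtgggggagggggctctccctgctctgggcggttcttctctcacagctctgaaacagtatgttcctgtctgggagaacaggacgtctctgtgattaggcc
C3: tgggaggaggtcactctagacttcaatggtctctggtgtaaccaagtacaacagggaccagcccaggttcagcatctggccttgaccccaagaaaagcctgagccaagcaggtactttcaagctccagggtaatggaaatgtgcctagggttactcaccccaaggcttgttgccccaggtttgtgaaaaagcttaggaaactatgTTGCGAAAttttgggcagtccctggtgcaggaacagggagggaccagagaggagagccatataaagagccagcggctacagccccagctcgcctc
In C3 the capitals are TTGCGAAA, a match to the C/EBP motif TTGCNNAA at 45 to 38 bases before the start. That motif was in 10.8% of the 32851 windows of all genes and in 1 of the 5 windows here. In C1qb the capitals mark the ETS core GAGGAA at 30 to 25 bases before the start, and in C1qc the same letters on the opposite strand at 193 to 188 bases before it. GAGGAA was in 28.3% of all windows and in 2 of the 5. The AP-1 motif TGANTCA was in the C3ar1 window, at 22 to 16 bases before the start, and in 7.81% of all windows. No window of the 5 held TGATGNAA, the composite motif of C/EBP and ATF proteins (3.97% of all windows), TGACGTCA, the cyclic AMP response element (1.79%), or TTCNNNGAA, the STAT motif (8.30%). A match is a description of letters, and no binding was measured.

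The 3 C1q genes lie side by side on the minus strand of mm10 chromosome 4, C1qb at 136880129 to 136886187, C1qc at 136889804 to 136893065 and C1qa at 136895917 to 136898803. Per kilobase of exon, the level in ATF3, ATF4, CEBPG, CHOP and control libraries averaged 808, 1274, 1206, 647 and 892 CPM per kb for C1qb. The same averages were 468, 742, 623, 375 and 493 CPM per kb for C1qa, and 365, 515, 456, 264 and 374 CPM per kb for C1qc. The other 6 genes were far lower in every group. In controls C4b stood at 48.9 ± 8.06 CPM per kb (SD, n = 4), Serping1 at 25.8 ± 3.62, Cfb at 24.5 ± 2.30, C3ar1 at 12.7 ± 4.16, C5ar1 at 12.3 ± 3.33 and C3 at 6.46 ± 1.22. Of these neighbours in order, Serping1 and Cfb differed by less than 1 SD, as did C3ar1 and C5ar1. In CEBPG libraries C3 stood at 23.6 ± 0.847 CPM per kb (n = 4), close to Cfb at 24.9 ± 3.44 and above Serping1 at 11.7 ± 5.18. The 9 genes together took 0.225% to 0.271% of counted reads in ATF3, 0.281% to 0.391% in ATF4, 0.322% to 0.368% in CEBPG, 0.144% to 0.224% in CHOP and 0.216% to 0.354% in control libraries.

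**Figure D1:**
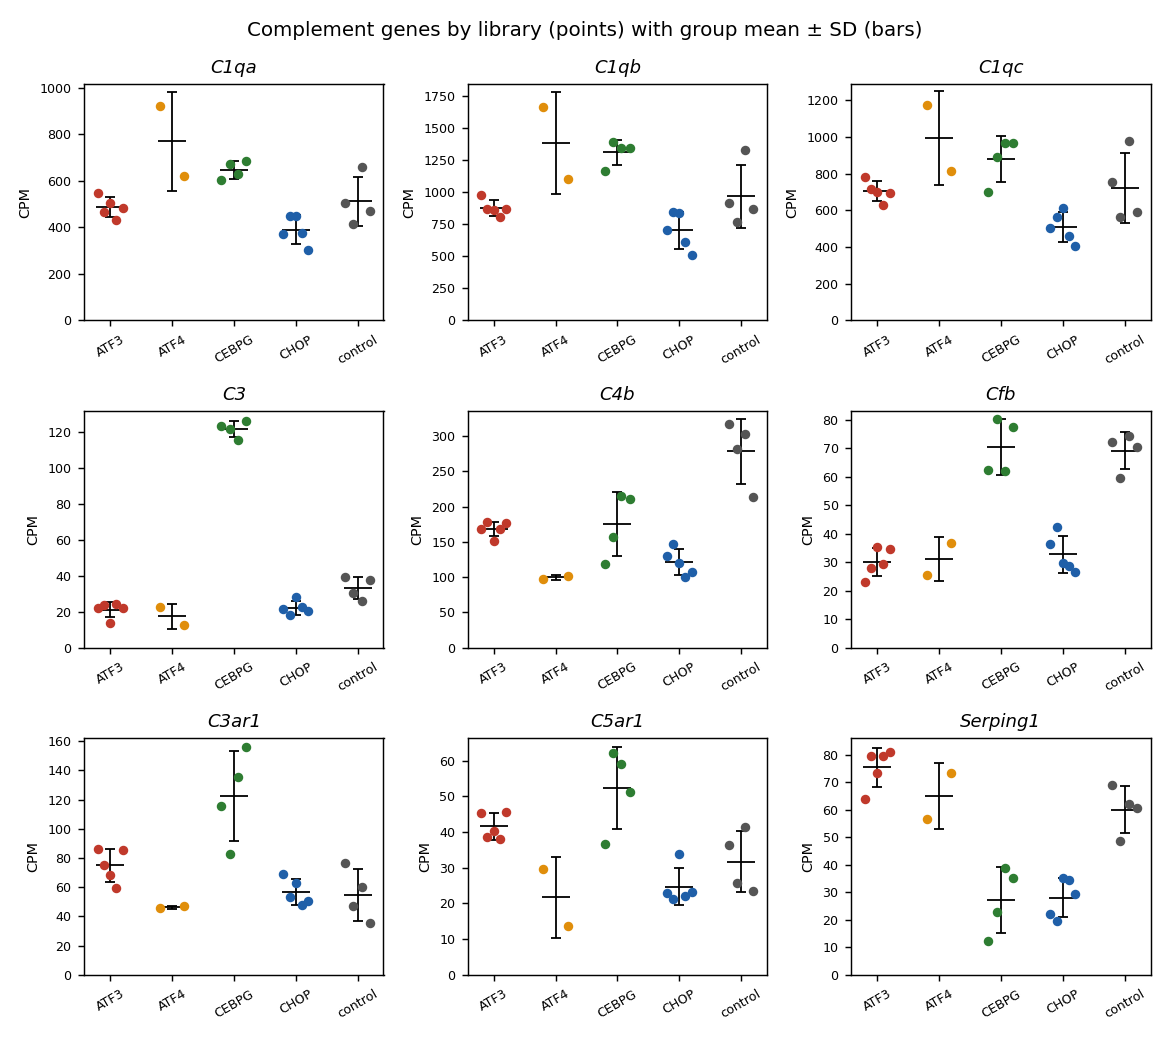
Level of each of the 9 complement genes in CPM (counts scaled to library size) in every library, by group, with each axis starting at 0; points are libraries and black bars the mean and SD. C3 in the 4 CEBPG libraries lies between 116 and 126 CPM, above every other library, and Serping1 in CEBPG and CHOP libraries lies below all other libraries.

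C1q transcripts were on average lowest in CHOP knockouts and highest in ATF4 knockouts, followed by CEBPG knockouts. C1qb, the B chain, was at 983, 869, 865, 811 and 866 CPM in ATF3 libraries, 1668 and 1105 CPM in ATF4 libraries, and 1166, 1390, 1348 and 1344 CPM in CEBPG libraries. It was at 704, 849, 842, 614 and 510 CPM in CHOP libraries and 919, 771, 1328 and 866 CPM in control libraries. Control replicate 7 lay among the CEBPG libraries, and the controls overlapped every knockout group. C1qa, the A chain, ran from 434 to 548 CPM in ATF3, was 922 and 621 CPM in ATF4, and ran from 604 to 685 CPM in CEBPG, 301 to 451 CPM in CHOP and 417 to 662 CPM in control libraries. For the C chain, C1qc, the ranges were 627 to 782 CPM in ATF3, 813 to 1175 CPM in ATF4, 699 to 966 CPM in CEBPG, 405 to 612 CPM in CHOP and 563 to 976 CPM in control libraries. Within a library the chains kept close proportions, with a C1qb to C1qa ratio of 1.63 to 2.14 CPM per CPM (median 1.86) and a C1qc to C1qa ratio of 1.16 to 1.53 (median 1.36) over the 20 libraries.

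In CHOP knockouts all 3 chains fell against control in edgeR's quasi-likelihood test with Benjamini-Hochberg adjustment over all 16797 genes tested, which is the test behind every adjusted p here. The log2 fold change was -0.40 (SE 0.14, adjusted p = 0.0275) for C1qa, -0.46 (SE 0.15, adjusted p = 0.0222) for C1qb and -0.50 (SE 0.15, adjusted p = 0.0126) for C1qc. All 3 calls were lost without control replicate 7 (adjusted p = 0.138, 0.134 and 0.0796 for C1qa, C1qb and C1qc), and those of C1qa and C1qb without CHOP replicate 5 (0.0703 and 0.0581). In ATF4 knockouts C1qa rose (0.59, SE 0.17, adjusted p = 0.0112) and C1qb passed narrowly (0.51, SE 0.20, adjusted p = 0.0494), whereas C1qc had 0.46 (SE 0.19, adjusted p = 0.0754). Without ATF4 replicate 1, the higher of the 2 libraries, C1qa had 0.28 (adjusted p = 0.401) and C1qb 0.19 (adjusted p = 0.649). The C1qa call was also lost without control replicate 5 (0.46, adjusted p = 0.0604). C1qb lost it without control replicate 4, 5 or 8 (adjusted p = 0.0879, 0.187 and 0.149), with DESeq2's size factors (0.0644) and with no filter on low counts (0.0503). A fit of only the 2 groups compared ended both calls (C1qa 0.56, adjusted p = 0.0708, and C1qb 0.48, adjusted p = 0.142). C1qc passed without ATF4 replicate 3 (0.70, adjusted p = 0.0326) or control replicate 7 (0.63, adjusted p = 0.00941).

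In CEBPG knockouts C1qb alone of the chains passed against control, at 0.43 (SE 0.16, adjusted p = 0.0435), with C1qa at 0.34 (SE 0.14, adjusted p = 0.076) and C1qc at 0.29 (SE 0.16, adjusted p = 0.18). The C1qb call was lost without CEBPG replicate 8, 9 or 10 (adjusted p = 0.115, 0.0763 and 0.0775) or control replicate 4, 5 or 8 (0.0882, 0.191 and 0.148), and in a fit of only the 2 groups compared (0.40, adjusted p = 0.103). Without control replicate 7, C1qa had 0.48 (adjusted p = 0.0113) and C1qc 0.46 (adjusted p = 0.0239). The chains in ATF3 knockouts had -0.07 (SE 0.14) for C1qa, -0.14 (SE 0.15) for C1qb and -0.03 (SE 0.15) for C1qc against control, none of which passed (adjusted p = 0.722, 0.52 and 0.895).

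Within batch 3 the C1q chains differed between knockouts. All 3 were higher in CEBPG than in CHOP libraries, by 0.73 (SE 0.14, adjusted p = 0.000296) for C1qa, 0.90 (SE 0.15, adjusted p = 0.000128) for C1qb and 0.79 (SE 0.15, adjusted p = 0.000429) for C1qc on the log2 scale. Of all genes, 13.5% were higher in that pair. In ATF3 knockouts C1qa (-0.41, SE 0.14, adjusted p = 0.0335) and C1qb (-0.58, SE 0.15, adjusted p = 0.00902) were lower than in CEBPG knockouts. The C1qa call was lost without ATF3 replicate 6, 7, 8 or 9 (adjusted p = 0.0706, 0.053, 0.0889 and 0.0628) or CEBPG replicate 8 or 10 (0.0738 and 0.0774). C1qc had -0.32 there (SE 0.15, adjusted p = 0.144). Against CHOP knockouts, the ATF3 knockouts had 0.32, 0.32 and 0.47 for C1qa, C1qb and C1qc (SE 0.13, 0.15 and 0.14, adjusted p = 0.256, 0.344 and 0.0986). DESeq2 called C1qc in that pair (adjusted p = 0.0329).

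Markers of microglia were counted beside the C1q chains. Of the 16, 10 rose and 0 fell in CEBPG knockouts against control, 11 rose and 0 fell in CEBPG against CHOP knockouts, and 1 rose and 5 fell in ATF3 against CEBPG knockouts. Over all genes the shares that rose and fell were 18.3% and 15.0%, 13.5% and 13.2%, and 10.1% and 10.2% in the same order. In CEBPG knockouts 0 fell at an unadjusted p under 0.05 too, against control and against CHOP knockouts. In CHOP knockouts 1 rose and 2 fell against control (18.1% and 15.4% of all genes), and in ATF4 knockouts 5 rose and 1 fell (16.6% and 14.6%). In ATF3 knockouts 4 rose and 0 fell against control (18.6% and 14.8% of all genes), where no C1q chain passed, and 4 were higher and 0 lower than in CHOP knockouts (1.51% and 0.756%). At an unadjusted p under 0.05 these ATF3 counts were 5 and 0, and 10 and 0, with no share of all genes computed at that threshold. Set against the summed microglia markers of the same library, the mean log2 ratio of C1qb differed from the control mean by -0.27 in ATF3, 0.36 in ATF4, 0.06 in CEBPG and -0.26 in CHOP libraries. For C1qa the same differences were -0.21, 0.43, -0.05 and -0.19. The share of the C1q differences that follows these markers was not tested.

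C3, the central protein that all pathways cleave, was high in CEBPG knockouts. It stood at 123, 122, 116 and 126 CPM in CEBPG libraries, 22.0, 23.5, 13.6, 24.1 and 22.2 CPM in ATF3 libraries, 22.4 and 12.3 CPM in ATF4 libraries, 21.7, 17.9, 28.4, 22.7 and 20.5 CPM in CHOP libraries and 39.1, 30.6, 25.7 and 37.6 CPM in control libraries. The CEBPG libraries lay within a narrow range above all 16 others, and controls lay above all ATF3 and ATF4 libraries. C3 was 3.66-fold higher in CEBPG knockouts than in controls (log2 1.87, SE 0.21, adjusted p = 1.41e-07), a rise that also passed in the authors' deposited table (2.54, FDR 1.76e-05). Within the batch C3 was 5.47-fold higher in CEBPG than in CHOP knockouts (log2 2.45, SE 0.19, adjusted p = 6.17e-09), and lower in ATF3 than in CEBPG knockouts (-2.53, SE 0.19, adjusted p = 6.17e-09). C3 fell against control in the other knockouts, by 0.66 (SE 0.19, adjusted p = 0.00935) in ATF3, 0.94 (SE 0.26, adjusted p = 0.00751) in ATF4 and 0.58 (SE 0.19, adjusted p = 0.0204) in CHOP knockouts on the log2 scale. The ATF4 call was lost without ATF4 replicate 3 (-0.57, adjusted p = 0.193), and the CHOP call without control replicate 4 or 8 (adjusted p = 0.0719 and 0.0513).

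Markers of blood-derived cells were also high in CEBPG libraries, where C3 was high. The 9 monocyte and neutrophil markers in the table summed to 406 to 451 CPM in CEBPG libraries, 181 to 230 CPM in ATF3, 65.6 to 82.9 CPM in ATF4, 51.0 to 105 CPM in CHOP and 67.9 to 93.0 CPM in control libraries. Of the 9, 7 rose in CEBPG knockouts against control and 9 rose in CEBPG against CHOP knockouts, beside 18.3% and 13.5% of all genes. Retnlg, at most 0.473 CPM in ATF3 libraries and at 0 in CHOP, ATF4 and control libraries, passed the filter only through CEBPG libraries. Its rises were thus set in advance and add nothing to these counts. The neutrophil transcripts S100a8, S100a9, Mmp8 and Retnlg were at 0 in all CHOP and ATF4 libraries. In controls Mmp8 and Retnlg were at 0 in all 4 libraries too. S100a8 and S100a9 averaged 0.275 and 0.149 CPM there, each with 2 libraries at 0. In CEBPG libraries the 4 transcripts averaged 5.54, 1.87, 1.58 and 32.1 CPM. ATF3 libraries, where C3 was not high, held them at 2.25, 1.86, 0.363 and 0.210 CPM on average, in the same order. The monocyte receptor Ccr2 averaged 158 CPM in CEBPG, 65.6 CPM in ATF3, 3.09 CPM in ATF4, 19.6 CPM in CHOP and 6.46 CPM in control libraries. The 10 T and NK lymphocyte markers summed to 1318 to 2263 CPM in CEBPG, 269 to 307 CPM in ATF3, 16.2 to 66.2 CPM in ATF4, 292 to 431 CPM in CHOP and 6.75 to 15.6 CPM in control libraries. The part of these monocyte, neutrophil and lymphocyte markers in the C3 difference was not tested. Relative to the microglia markers, C3 differed from the control mean by 1.49 in CEBPG, -0.82 in ATF3, -1.13 in ATF4 and -0.38 in CHOP libraries on the log2 scale.

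**Figure D2:**
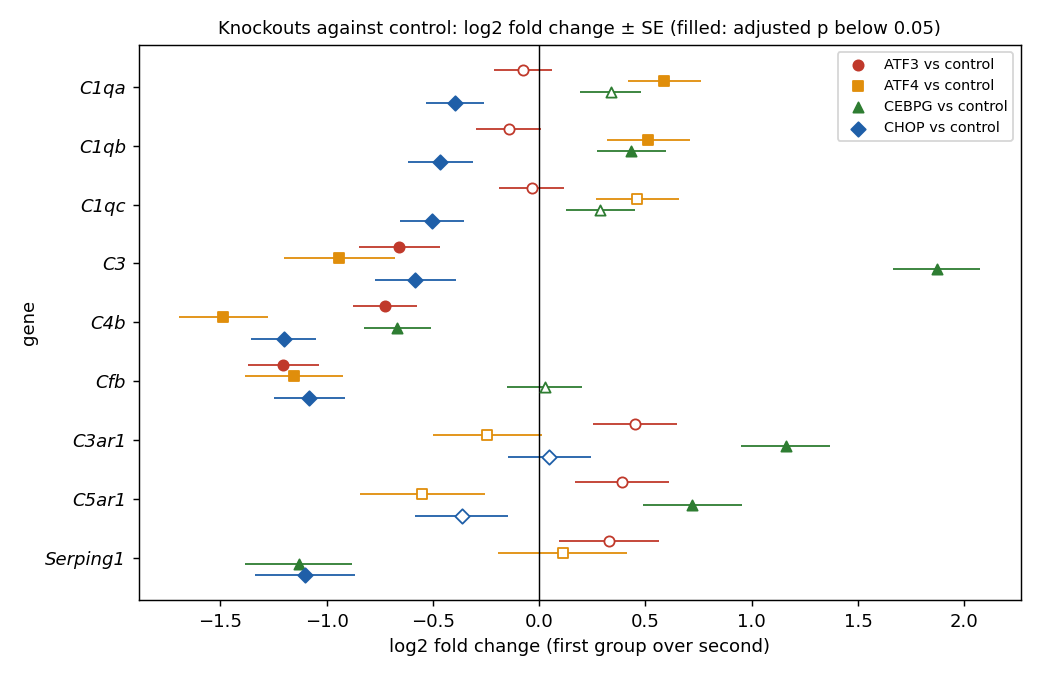
Log2 fold change (horizontal axis, bars are SE) of the 9 complement genes in each knockout against control, with filled symbols at an adjusted p below 0.05. C3 and C3ar1 lie to the right in CEBPG knockouts at 1.87 and 1.16, and C4b lies left of 0 in every knockout, with values of -0.67 to -1.49.

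C4b, the classical pathway component on mm10 chromosome 17 (34728380 to 34743882, minus strand), fell in every knockout against control. It was at 168, 178, 152, 168 and 177 CPM in ATF3 libraries, 97.0 and 102 CPM in ATF4 libraries, 119, 157, 215 and 210 CPM in CEBPG libraries, 130, 147, 120, 101 and 107 CPM in CHOP libraries and 317, 282, 303 and 213 CPM in control libraries. No ATF3, ATF4 or CHOP library reached the lowest control, whereas CEBPG replicate 9 did. The log2 fold changes were -0.73 (SE 0.15, adjusted p = 0.000547) in ATF3, -1.49 (SE 0.21, adjusted p = 9.4e-06) in ATF4, -0.67 (SE 0.16, adjusted p = 0.00213) in CEBPG and -1.20 (SE 0.15, adjusted p = 1.06e-06) in CHOP knockouts. The 4 comparisons share their control libraries, and only the ATF4 fall passed in the authors' deposited table. Within batch 3, C4b was higher in CEBPG than in CHOP knockouts (0.54, SE 0.15, adjusted p = 0.00996). In ATF3 knockouts it was at 0.48 relative to CHOP (SE 0.14, adjusted p = 0.0868), with no overlap, and passed without CHOP replicate 2 (0.57, adjusted p = 0.0447) and in DESeq2 (adjusted p = 0.0316). Between ATF3 and CEBPG knockouts C4b had -0.06 (SE 0.15, adjusted p = 0.823). Mouse C4b has a near-identical copy, C4a, which averaged 0.173 CPM in ATF3, 1.16 CPM in ATF4, 0.0405 CPM in CEBPG, 0.0284 CPM in CHOP and 0.641 CPM in control libraries, and the handling of reads that match both copies is not stated in the labels or the file, so C4b values are uncertain to that extent.

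Factor B, the protease of the alternative pathway (Cfb, mm10 chromosome 17, 34856374 to 34862518, minus strand), split the groups into 2 levels. Cfb was at 23.1, 27.8, 35.5, 29.2 and 34.4 CPM in ATF3 libraries, 25.6 and 36.6 CPM in ATF4 libraries, 62.3, 80.2, 61.8 and 77.3 CPM in CEBPG libraries, 36.3, 42.2, 29.8, 28.6 and 26.4 CPM in CHOP libraries and 72.1, 59.6, 74.1 and 70.5 CPM in control libraries. Every CEBPG and control library lay above every ATF3, ATF4 and CHOP library. Cfb fell by 1.20 (SE 0.17, adjusted p = 4.91e-06) in ATF3, by 1.15 (SE 0.23, adjusted p = 0.000445) in ATF4 and by 1.08 (SE 0.17, adjusted p = 1.84e-05) in CHOP knockouts against control on the log2 scale. In CEBPG knockouts it had 0.03 (SE 0.18, adjusted p = 0.93). Within the batch it was 2.16-fold higher in CEBPG than in CHOP knockouts (log2 1.11, SE 0.17, adjusted p = 2.76e-05) and lower in ATF3 than in CEBPG knockouts (-1.23, SE 0.17, adjusted p = 1.12e-05). The annotated gene Gm20547 shares 2246 exon bases with Cfb on the same strand, 79.5% of the exon bases of Cfb, so reads there cannot be given to Cfb alone, and Gm20547 is not in the count table.

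C3ar1, the C3a receptor of microglia and other myeloid cells (mm10 chromosome 6, 122847138 to 122856161, minus strand), was highest in CEBPG knockouts. It was at 86.5, 75.0, 68.3, 59.4 and 85.5 CPM in ATF3 libraries, 45.6 and 47.0 CPM in ATF4 libraries, 116, 82.9, 135 and 156 CPM in CEBPG libraries, 69.2, 53.1, 62.8, 48.0 and 50.8 CPM in CHOP libraries and 76.8, 46.8, 60.4 and 35.2 CPM in control libraries. All CEBPG libraries lay above all ATF4, CHOP and control libraries, and CEBPG replicate 8 overlapped the ATF3 libraries. C3ar1 rose in CEBPG knockouts against control (1.16, SE 0.21, adjusted p = 0.000119) and was higher than in CHOP knockouts (1.11, SE 0.19, adjusted p = 0.000157). It was lower in ATF3 than in CEBPG knockouts (-0.71, SE 0.19, adjusted p = 0.0106). With CEBPG replicate 10 left out that call did not pass (-0.57, adjusted p = 0.0525). In ATF3 knockouts it had 0.45 against control (SE 0.20, adjusted p = 0.085), and leaving out control replicate 4 gave 0.66 (adjusted p = 0.014). The ATF4 and CHOP knockouts had -0.24 (SE 0.26, adjusted p = 0.522) and 0.05 (SE 0.20, adjusted p = 0.883). The CEBPG rise of C3ar1 did not pass in the authors' deposited table (0.16, FDR 0.816).

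C5ar1, the C5a receptor found on the same cells (mm10 chromosome 7, 16246743 to 16259540, minus strand), was at 45.3, 38.7, 40.2, 38.0 and 45.8 CPM in ATF3 libraries, 29.8 and 13.7 CPM in ATF4 libraries, 36.7, 62.2, 59.2 and 51.3 CPM in CEBPG libraries, 23.0, 21.1, 34.0, 22.1 and 23.3 CPM in CHOP libraries and 36.5, 25.8, 41.3 and 23.4 CPM in control libraries. Every ATF3 and CEBPG library lay above every CHOP library. C5ar1 rose in CEBPG knockouts against control (0.72, SE 0.23, adjusted p = 0.0191). Leaving out CEBPG replicate 8 (adjusted p = 0.0681) or control replicate 5 or 8 (0.0769 and 0.0891) ended that call, as did a fit of only the 2 groups compared (0.69, adjusted p = 0.0542). It was 2.12-fold higher in CEBPG than in CHOP knockouts (log2 1.09, SE 0.22, adjusted p = 0.000645). In ATF3 against CHOP knockouts it had 0.75 (SE 0.21, adjusted p = 0.056), which passed without CHOP replicate 3 (0.91, adjusted p = 0.0228) and in DESeq2 (adjusted p = 0.0172). Against control, C5ar1 had 0.39 in ATF3, -0.55 in ATF4 and -0.36 in CHOP knockouts (SE 0.22, 0.29 and 0.22, adjusted p = 0.194, 0.166 and 0.216). The ATF4 value passed without ATF4 replicate 1 (-1.21, adjusted p = 0.02). Relative to the microglia markers, C3ar1 differed from the control mean by 0.34, -0.33, 0.78 and 0.30, and C5ar1 by 0.27, -0.76, 0.33 and -0.14, in ATF3, ATF4, CEBPG and CHOP libraries on the log2 scale.

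Serping1, which encodes C1 inhibitor (mm10 chromosome 2, 84765387 to 84775444, minus strand), divided the groups in another way. It was at 63.8, 79.5, 73.4, 79.5 and 81.0 CPM in ATF3 libraries, 56.5 and 73.3 CPM in ATF4 libraries, 12.3, 22.9, 38.7 and 35.1 CPM in CEBPG libraries, 22.1, 19.4, 35.0, 34.3 and 29.3 CPM in CHOP libraries and 68.8, 48.6, 62.2 and 60.5 CPM in control libraries. No CEBPG or CHOP library reached the lowest of the other 11. Serping1 fell by 1.13 (SE 0.25, adjusted p = 0.00112) in CEBPG and by 1.10 (SE 0.24, adjusted p = 0.000752) in CHOP knockouts against control on the log2 scale, and both falls passed in the authors' deposited table (-1.24 with FDR 0.00101, and -1.71 with FDR 0.0194). In ATF3 and ATF4 knockouts it had 0.33 (SE 0.24, adjusted p = 0.316) and 0.11 (SE 0.30, adjusted p = 0.827). Within batch 3 it was 2.69-fold higher in ATF3 than in CHOP knockouts (log2 1.43, SE 0.23, adjusted p = 0.000595) and 2.75-fold higher in ATF3 than in CEBPG knockouts (log2 1.46, SE 0.24, adjusted p = 0.000136). Between CEBPG and CHOP knockouts Serping1 had -0.03 (SE 0.24, adjusted p = 0.947). The 11 Müller glia markers summed to 2992 to 3474 CPM in ATF3, 3349 to 4195 CPM in ATF4, 1647 to 2196 CPM in CEBPG, 3121 to 3506 CPM in CHOP and 2411 to 3603 CPM in control libraries and none was at 0 in any library. Of the 11, 2 rose and 7 fell in CEBPG knockouts and 1 rose and 6 fell in CHOP knockouts against control. In ATF3 knockouts, where Serping1 did not pass, 2 rose and 5 fell, and in ATF4 knockouts 5 rose and 0 fell. Over all genes 16.6% to 18.6% rose and 14.6% to 15.4% fell in these comparisons. Dkk3, at 2238 CPM in CHOP and 1178 CPM in control libraries, made up much of the sums. The part of the Müller glia markers in the Serping1 difference was not tested.

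**Figure D3:**
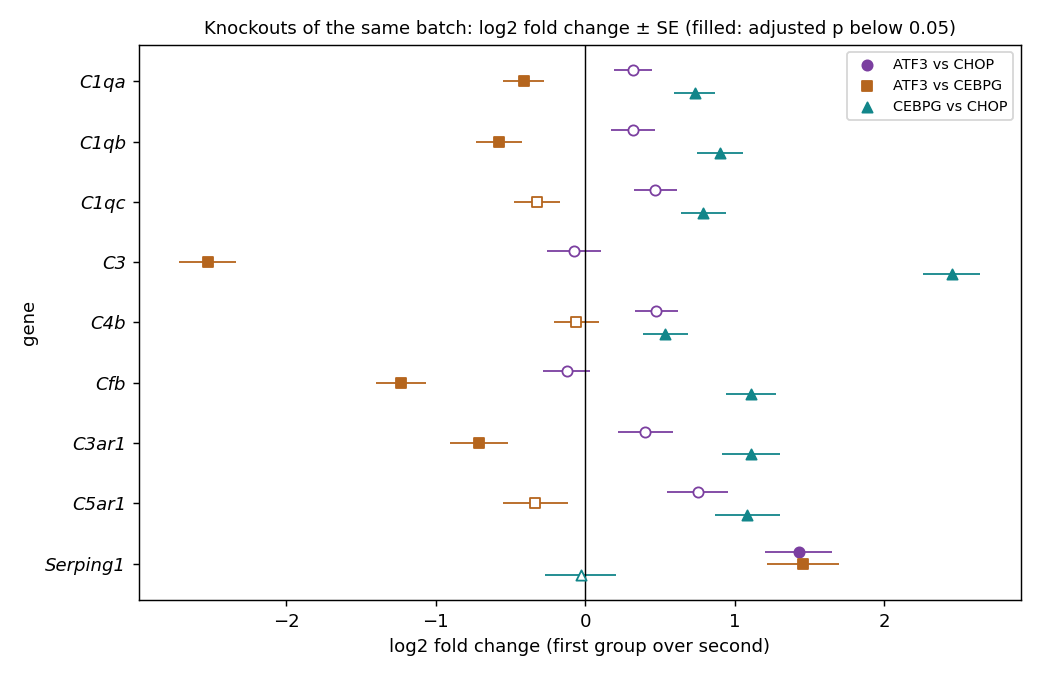
Log2 fold change (horizontal axis, bars are SE) of the 9 complement genes between the knockouts that shared batch 3, with filled symbols at an adjusted p below 0.05. Against CHOP knockouts, 8 genes lie right of 0 in CEBPG knockouts with C3 at 2.45, and Serping1 lies right of 0 in both comparisons that have ATF3 knockouts first.

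Counted over the 9 genes, 0 rose and 3 fell in ATF3 knockouts against control (C3, C4b and Cfb), where 18.6% of all genes tested rose and 14.8% fell. In ATF4 knockouts 2 rose (C1qa and C1qb) and 3 fell (C3, C4b and Cfb), beside 16.6% and 14.6% of all genes. In CEBPG knockouts 4 rose (C1qb, C3, C3ar1 and C5ar1) and 2 fell (C4b and Serping1), beside 18.3% and 15.0%. In CHOP knockouts 0 rose and 7 fell, all but the receptors C3ar1 and C5ar1, beside 18.1% and 15.4%. At an unadjusted p under 0.05, edgeR gave 1 rise in ATF3 and 0 in CHOP knockouts, and DESeq2 called 0 rises in either. The median log2 fold change of the 9 genes was -0.07, -0.24, 0.34 and -0.50 in ATF3, ATF4, CEBPG and CHOP knockouts, and that of all genes tested was 0.06, 0.00, 0.06 and 0.01. With a single library left out, the number called was 3 to 4 for ATF3, 3 to 6 for ATF4, 4 to 8 for CEBPG and 4 to 7 for CHOP knockouts.

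Within batch 3, 8 of the 9 genes were higher and 0 lower in CEBPG than in CHOP knockouts, where 13.5% of all genes were higher and 13.2% lower, and these 8 calls held with any single library left out. Their median log2 fold change was 0.90, against -0.03 for all genes. In ATF3 against CEBPG knockouts 1 gene was higher (Serping1) and 5 were lower (C1qa, C1qb, C3, C3ar1 and Cfb), beside 10.1% and 10.2% of all genes, with medians of -0.41 and 0.00. In ATF3 against CHOP knockouts Serping1 was higher and none was lower, beside 1.51% and 0.756%, with medians of 0.40 and -0.01. In that pair DESeq2 called 4 genes higher and 0 lower, and edgeR gave 7 higher and 0 lower at an unadjusted p under 0.05. DESeq2 called 676 of all 16797 genes there, in either direction. No share of all genes was computed at an unadjusted p, so the shares above do not apply to those counts. In CEBPG against CHOP knockouts DESeq2, and edgeR at an unadjusted p under 0.05, also gave 8 higher and 0 lower, where DESeq2 called 4961 of all genes in either direction.

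The model and log base behind the authors' deposited table are not given here, and members passed its FDR at 0.05 as follows. None passed for ATF3, C4b passed for ATF4 (-1.85, FDR 0.00344), C3, Cfb (0.84, FDR 0.0267) and Serping1 for CEBPG, and C5ar1 (-2.35, FDR 0.0253) and Serping1 for CHOP. Over all genes, 7.99%, 5.77%, 22.1% and 7.30% passed for ATF3, ATF4, CEBPG and CHOP in the authors' deposited table. C5ar1 was at -1.53 for ATF3 and -0.48 for CEBPG in the authors' deposited table (FDR 0.0608 and 0.349), whereas the counts gave positive values of 0.39 and 0.72. Cfb for CEBPG passed there, whereas the counts gave 0.03. Some falls and rises called from the counts did not pass or had the other sign in the authors' deposited table. Cfb had -0.03 for ATF3 and 0.17 for CHOP there (FDR 0.981 and 0.898), C3 had 0.29 and 0.14 (FDR 0.799 and 0.937), and for ATF4 C1qa had -0.10 and C1qb -0.21 (FDR 0.909 and 0.786). C4b had -0.15 for ATF3, -0.15 for CEBPG and -0.48 for CHOP (FDR 0.832, 0.623 and 0.434), and C3ar1 had 0.16 for CEBPG (FDR 0.816).

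**Figure D4:**
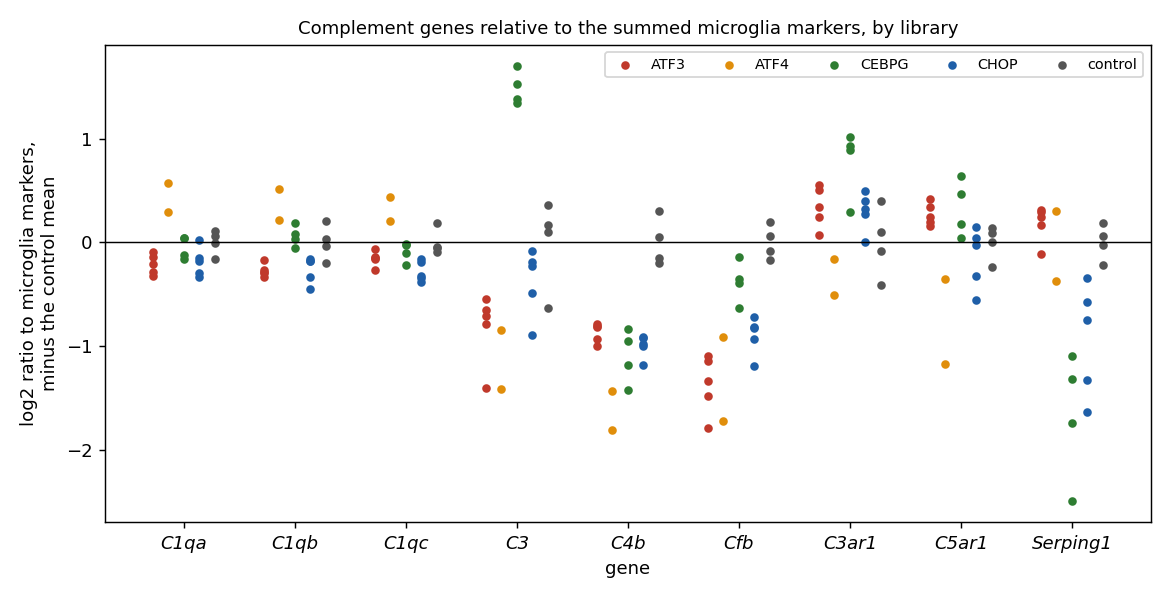
Log2 ratio of each complement gene to the summed 16 microglia markers of the same library, minus the control mean (vertical axis), with 1 point per library and the genes along the horizontal axis. The C1q genes stay near 0 in CEBPG libraries (-0.09 to 0.06 on average), C3 averages 1.49 there and Serping1 -1.66, and C4b averages -0.87 to -1.62 in the knockouts.

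Genes with the most similar profile over the 20 libraries were sought among genes averaging 5 CPM or more, by the root mean square difference of centred log2 CPM. The C1q chains were each other's nearest genes, with 0.09 between C1qa and C1qb, 0.11 between C1qa and C1qc and 0.12 between C1qb and C1qc, followed by Tomm5 for C1qa, the lysosomal protease Ctss for C1qb and the Fc receptor chain Fcer1g for C1qc (0.12, 0.15 and 0.15). C3 had no such close neighbour, its nearest being the beta-glucan receptor Clec7a (0.38), Traf3ip3 (0.39) and the MHC class I regulator Nlrc5 (0.41). The nearest to C3ar1 were Tpm3, Actr3 and Ifi30 (0.24, 0.25 and 0.26), and to C5ar1 Tmem173, Apobec1 and the Fc receptor Fcgr3 (0.28, 0.30 and 0.31). For C4b they were Pxn, Lrrc57 and Hadhb (0.21, 0.24 and 0.27), for Cfb Crlf3, Hcls1 and Me2 (0.25, 0.26 and 0.29), and for Serping1 Chtf18 and Pygm (0.35 and 0.40).

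Of 47 other complement genes listed, 33 were in the table and 32 were tested. The rest of the cascade was sparse. The proteases that act with C1q averaged 3.52, 3.45, 4.73, 3.70 and 6.73 CPM (C1ra) and 3.54, 1.15, 3.50, 1.47 and 1.55 CPM (C1s1) in ATF3, ATF4, CEBPG, CHOP and control libraries, and C2, the partner of C4b, averaged 2.11, 3.65, 7.44, 3.00 and 5.29 CPM. None of the 4 tested classical pathway genes passed in any comparison with edgeR or DESeq2, and 1 fell at an unadjusted p under 0.05 in edgeR, in CHOP knockouts against control. Of the 32 genes, 7 rose and 2 fell in ATF3, 6 and 4 in ATF4, 11 and 3 in CEBPG and 5 and 3 in CHOP knockouts against control. Over all genes 18.6%, 16.6%, 18.3% and 18.1% rose and 14.8%, 14.6%, 15.0% and 15.4% fell in the same order, so the ATF3, ATF4 and CHOP rises were near the share of all genes. Against CHOP knockouts 2 were higher and 0 lower in ATF3 (4 and 1 in DESeq2, 6 and 1 at an unadjusted p under 0.05 in edgeR) and 9 higher and 7 lower in CEBPG knockouts, and 5 were higher and 3 lower in ATF3 than in CEBPG knockouts. Over all genes the edgeR shares at an adjusted p were 1.51% and 0.756%, 13.5% and 13.2%, and 10.1% and 10.2% in the same order. None was computed at an unadjusted p, and DESeq2 called 676 of 16797 genes in ATF3 against CHOP knockouts. The median over the 32 was 0.38, -0.14, 0.70 and 0.04 in ATF3, ATF4, CEBPG and CHOP knockouts against control, beside 0.06, 0.00, 0.06 and 0.01 over all genes. Fcna averaged 2.15 CPM in CEBPG and 0.0194 CPM in ATF3 libraries and was at 0 in all others, so it passed the filter only through CEBPG libraries. The edgeR counts of every CEBPG comparison include it, and its direction there was set in advance.

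Of the 6 tested receptor genes, 4 rose in CEBPG knockouts against control and 5 were higher in CEBPG than in CHOP knockouts, beside 18.3% and 13.5% of all genes. Itgb2, the shared beta chain of complement receptors 3 and 4, averaged 442 ± 47.1 CPM (SD, n = 4) in CEBPG knockouts against 113 ± 18.6 CPM (n = 4) in controls (log2 1.96, SE 0.16, adjusted p = 1.5e-09). Itgax, the alpha chain of receptor 4, ran from 20.7 to 42.8 CPM in CEBPG knockouts against 8.31 to 17.7 CPM in controls (1.11, SE 0.30, adjusted p = 0.00592), and Itgb2 is also carried by lymphocytes, whose markers were high in the same libraries. Both were higher in CEBPG than in CHOP knockouts as well (Itgb2 1.86, SE 0.15, adjusted p = 8.81e-09, and Itgax 1.96, SE 0.28, adjusted p = 1.77e-05). The second C5a receptor, C5ar2, averaged 8.76 ± 4.11 CPM in CEBPG and 1.08 ± 1.27 CPM in CHOP knockouts (3.01, SE 0.72, adjusted p = 0.00295). Itgam, the alpha chain of receptor 3, rose in ATF3 knockouts, at 242 to 267 CPM (n = 5) against 80.7 to 168 CPM in controls (1.01, SE 0.19, adjusted p = 0.000177), and exceeded the 133 ± 22.1 CPM of CHOP knockouts (0.93, SE 0.17, adjusted p = 0.00326). In CEBPG knockouts Itgam also rose against control (0.66, SE 0.19, adjusted p = 0.0105) and exceeded CHOP knockouts (0.58, SE 0.18, adjusted p = 0.0214). The difference between ATF3 and CEBPG knockouts did not pass (0.35, SE 0.18, adjusted p = 0.191). Itgam fell in ATF4 knockouts, to 65.4 ± 6.25 CPM (n = 2) against 125 CPM in controls (-0.94, SE 0.25, adjusted p = 0.00547), a call lost without ATF4 replicate 3 (adjusted p = 0.0705).

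Of the 16 tested regulators, 6 rose and 2 fell in ATF3, 6 and 2 in ATF4, 6 and 3 in CEBPG and 5 and 2 in CHOP knockouts against control, where 16.6% to 18.6% of all genes rose and 14.6% to 15.4% fell. Sez6, a neuronal protein with complement control domains, averaged 389 ± 25.2 CPM in ATF3, 294 ± 22.6 CPM in ATF4, 194 ± 48.8 CPM in CEBPG and 445 ± 48.4 CPM in CHOP knockouts against 151 ± 13.1 CPM in controls. It rose by 1.36 in ATF3 (SE 0.13, adjusted p = 2.94e-08), by 0.96 in ATF4 (SE 0.16, adjusted p = 8.04e-05), by 0.36 in CEBPG (SE 0.14, adjusted p = 0.0461) and by 1.56 in CHOP knockouts (SE 0.13, adjusted p = 3.84e-09) on the log2 scale, and was lower in CEBPG than in CHOP knockouts (-1.20, SE 0.13, adjusted p = 5.5e-07). Sez6l, a relative of Sez6, was at 89.2 ± 11.8 CPM in CHOP knockouts against 25.1 ± 13.3 CPM in controls (1.83, SE 0.24, adjusted p = 1.84e-06). Susd4, a membrane protein that also has complement control domains, was at 115 ± 12.9 CPM in CHOP knockouts against 53.2 ± 6.96 CPM in controls (1.11, SE 0.17, adjusted p = 1.31e-05). Susd4 rose as well in ATF3 (1.04, SE 0.17, adjusted p = 3.21e-05) and ATF4 knockouts (1.10, SE 0.20, adjusted p = 0.000232). It did not pass in CEBPG knockouts (0.28, SE 0.17, adjusted p = 0.231). Cr1l, the membrane inhibitor Crry of rodents, averaged 40.9 ± 14.7 CPM in CEBPG knockouts against 15.6 ± 3.32 CPM in controls (1.39, SE 0.27, adjusted p = 0.000314). Cr1l rose in ATF3 knockouts too (0.83, SE 0.26, adjusted p = 0.016).

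Clu, clusterin, a fluid-phase inhibitor of the terminal complex that Müller glia make in abundance, fell in CEBPG knockouts, to 502 ± 131 CPM against 1090 ± 245 CPM in controls (-1.12, SE 0.16, adjusted p = 4.31e-06). Clu also fell in CHOP knockouts (-0.54, SE 0.14, adjusted p = 0.00533) and rose in ATF4 knockouts (0.54, SE 0.18, adjusted p = 0.0285). In ATF3 knockouts it did not pass (0.11, SE 0.15, adjusted p = 0.608). Within the batch it was higher in ATF3 knockouts, at 1177 ± 63.2 CPM, than in CEBPG knockouts (1.23, SE 0.15, adjusted p = 2.9e-06) and CHOP knockouts, at 749 ± 22.9 CPM (0.65, SE 0.14, adjusted p = 0.00903). Vtn, vitronectin, another inhibitor of the terminal complex and a transcript of photoreceptors in the retina, averaged 121, 147, 86.0 and 157 CPM in ATF3, ATF4, CEBPG and CHOP knockouts against 905 CPM in controls, with log2 fold changes of -2.90, -2.62, -3.39 and -2.53 (SE 0.20, 0.29, 0.23 and 0.20). The 14 rod photoreceptor markers summed to 4246 to 4535 CPM in ATF3, 3977 to 5054 CPM in ATF4, 3179 to 5436 CPM in CEBPG, 5302 to 9025 CPM in CHOP and 38897 to 61254 CPM in control libraries. Their part in the Vtn difference was not tested.

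**Figure D5:**
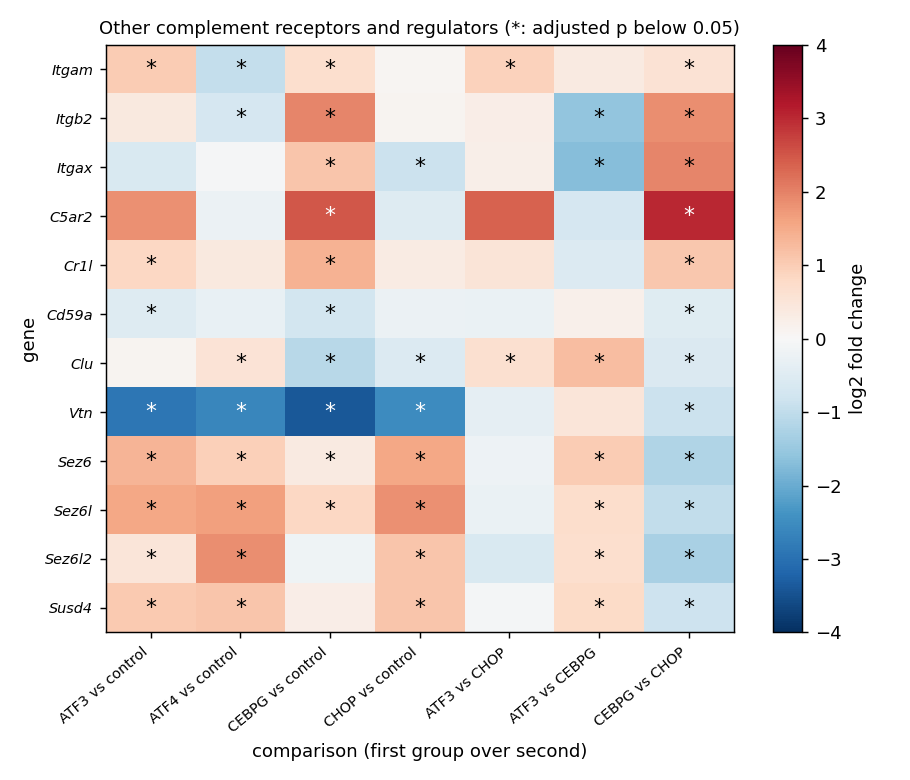
Log2 fold change (colour) of 12 other complement receptors and regulators (rows) in 7 comparisons (columns), with a star at an adjusted p below 0.05. Itgb2 is red in both comparisons with CEBPG first (1.96 and 1.86), Vtn is blue in all 4 comparisons against control (-2.53 to -3.39), and Sez6 is red against control in ATF3, ATF4 and CHOP knockouts (0.96 to 1.56).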

How the data were processed

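RNA was measured in sorted retinal cells by SMART-Seq v4 sequencing. The authors deposited raw read counts per gene, which were used as whole numbers, together with a table of log fold changes, read as log2, that also gives p-values and FDR, and a sample sheet. STAR, Picard, HTSeq, edgeR and the build mm10 are named per the submitters' processing notes, without versions. The annotation, strand and counting settings, the gate of the sort and the deposited table's model are also not given in the sources used. In the sheet, 38 columns of values were not used.

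Counts were fitted with edgeR 4.0.16 (R 4.3.3). The filter filterByExpr, at a minimum count of 10, left 16797 genes and took out 367, and TMM set the library scaling. A robust quasi-likelihood fit by group held all 20 libraries, with 15 residual degrees of freedom and a biological coefficient of variation of 0.407, and calls are genes whose p, adjusted over all genes by Benjamini-Hochberg, lay below 0.05. SE is the absolute log2 fold change divided by the square root of F. CPM use the TMM factors, and log2 CPM a prior count of 2. The step was tested on simulated data. Alternatives were DESeq2 1.42.0, its size factors, no filter, only the 2 groups compared, a replicate block and leaving out each library. Within a group, pairs of libraries differed by more than counting noise (chi-square per gene 12.9 to 64.6). Groups follow the titles, and 1 library whose title and genotype label disagree entered no group. Coordinates are from GENCODE vM21 (mm10). Counting error is a lower limit here, as reads carry no molecular identifiers and are not independent molecules.

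The 9 genes, the other lists, the markers and the tests were chosen with earlier results of these data known. Named are the 9 genes, up to 4 called genes per direction of the other complement lists, up to 3 markers per list by abundance, and the 3 genes nearest to each of the 9, except that some genes these rules name are not reported here. Markers at 0 and the sparse classical pathway genes were named after their values were seen. Same-numbered libraries of different groups had correlations of their deviations from the group means near 0, so the numbers do not pair libraries.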

Additional observations from a re-analysis of the deposited data

Results flagged for a closer look

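Within a group, 2 of 36 checks found a library far from the others, and chance gives about 1 in 20. C3 in ATF3 replicate 7 was at 13.6 CPM, where the other 4 ATF3 libraries were at 22.0 to 24.1 CPM. C5ar1 in CHOP replicate 3 was at 34.0 CPM, where the other 4 CHOP libraries were at 21.1 to 23.3 CPM.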

How the results depend on the processing

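The number of the 9 genes called changed by over 1.5 times in these cases. With a replicate block it was 2 for ATF4 and 4 for CHOP against control (5 and 7 without it), 0 for ATF3 against CHOP (1) and 3 for CEBPG against CHOP (8). Of all 16797 genes the block called 1322, 2719, 11 and 517 in the same order, beside 5251, 5625, 380 and 4478 without it. With only the 2 groups compared it was 3 for ATF4 against control and 4 for ATF3 against CHOP, and with DESeq2 4 for ATF3 against CHOP. Over all genes, these 2-group fits called 4379 of 15289 and 1232 of 15487, and DESeq2 called 676 of 16797. Of the other complement genes, 9, 10 and 14 were called for ATF3, ATF4 and CEBPG against control, 2 for ATF3 against CHOP and 16 for CEBPG against CHOP. The block gave 4 for ATF4, 7 for CEBPG, 0 for ATF3 against CHOP and 4 for CEBPG against CHOP. For CEBPG against control it called 3081 of all genes, beside 5608 without it. The 2-group fits gave 15 for ATF3, 8 for CEBPG and 5 for ATF3 against CHOP, and DESeq2 gave 5 for the last. Over all genes, the 2-group fits called 6729 of 15718 for ATF3 and 3887 of 14855 for CEBPG against control. The numbers do not pair the libraries (correlations of -0.05 to 0.03 between same-numbered libraries), and the block left 6 residual degrees of freedom. The cause was not tested.

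With 1 library left out, the number called among the 9 genes was 3 to 4, 3 to 6, 4 to 8 and 4 to 7 against control for ATF3, ATF4, CEBPG and CHOP, 1 to 2 for ATF3 against CHOP, 4 to 6 for ATF3 against CEBPG and 8 for CEBPG against CHOP in every fit. Among the other complement genes it was 7 to 9, 5 to 10, 10 to 14 and 7 to 10 against control, 2 to 3, 7 to 10 and 13 to 18 in the same order. Where ATF4 kept 1 library, that library was assumed to vary like the other groups.

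Values that changed sign belonged to differences that had not passed. Under the block these were C1qa (0.015) and C1qc (0.067) in ATF3 against control, Cfb in CEBPG against control (-0.024), C3ar1 in CHOP against control (-0.33), C3 in ATF3 against CHOP (0.044) and C4b in ATF3 against CEBPG (0.058). With only 2 groups these were Cfb in CEBPG against control (-0.0058) and Serping1 in CEBPG against CHOP (0.00059). With 1 library left out, ATF3 against control ran from -0.19 to 0.069 for C1qa, -0.27 to 0.041 for C1qb and -0.16 to 0.14 for C1qc. Serping1 ran from -0.090 to 0.29 in ATF4 against control and -0.23 to 0.20 in CEBPG against CHOP, Cfb from -0.074 to 0.083 in CEBPG against control and -0.18 to 0.0024 in ATF3 against CHOP, C3ar1 from -0.15 to 0.26 in CHOP against control, C3 from -0.13 to 0.061 in ATF3 against CHOP and C4b from -0.21 to 0.054 in ATF3 against CEBPG. The controls had 6401446 to 11752828 counted reads per library, and whether depth limits the comparisons against control was not tested.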

Other observations

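A library titled as control but labelled with the genotype of a CHOP knockout entered no group, and its sheet entry names a control guide in batch 4 from a male mouse. It held 33665965 counted reads. The C1q chains were at 927 CPM (C1qa), 1929 CPM (C1qb) and 1608 CPM (C1qc) in it. C3ar1 was at 263 CPM and C5ar1 at 161 CPM, above every library of the 5 groups. C3 was at 11.1 CPM, C4b at 181 CPM, Cfb at 27.1 CPM and Serping1 at 81.1 CPM.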
